A study of Mus musculus with 4 samples.

Results

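Myeloid-specific open regions of CT26 tumours are stretches of chromatin that were accessible in the tumour's myeloid nuclei and far less so in its cancer nuclei. They are the autosomal accessibility peaks of the Sun1_WT library that held at least 50 counts in Sun1_WT myeloid nuclei and whose counts per 1000000 (CPM) there were at least 8 times those in Sun1_WT tumour nuclei. They were chosen by these Sun1_WT counts: the rule selected 11724 peaks, called members from here on, out of 123804 autosomal peaks, 37559 of them with 50 counts or more, and out of 127147 peaks in all. That is 31.2% of the peaks with enough counts.

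CT26 is a mouse colon cancer line, and the cells were labelled Sun1_WT or Sun1_KO for Sun1, which encodes SUN1, a protein of the inner nuclear membrane that ties chromatin to the cytoskeleton. They were grown under the skin of BALB/c mice, and tumours were taken at day 14. RNA and accessible DNA were read from the same nuclei with a multiome kit, giving 1 RNA and 1 accessibility library for each genotype. The labels place the knockout in the injected cells and give none for the host mice, and they do not say how many tumours or mice each library holds. With 1 library a genotype no difference between the genotypes has a replicate check, no p-value is given, and the intervals printed for regions and genes cover counting error only.

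Nuclei were sorted by their RNA. A nucleus was called myeloid with Hmga2, an oncofetal chromatin gene of these cancer cells, under 5 per 10000 UMIs and at least 5 UMIs of Lyz2, Msr1, Mrc1, Cybb, Ctss and Csf1r together, and tumour with Hmga2 at 5 or more per 10000 and at most 1 UMI of the leukocyte gene Ptprc. These gates held 356 myeloid and 2352 tumour nuclei of 3455 in Sun1_WT, and 347 and 1442 of 2404 in Sun1_KO. Of the 12 myeloid markers 6 define the gate, so only the other 6, among them Adgre1, Itgam, Fcgr1, C1qa and Cd68, bear on its label. Each of these 6 stood at 50 CPM or more in the myeloid gate of both libraries, and they summed to 5328 CPM in Sun1_WT and 4106 CPM in Sun1_KO, against 24.2 and 42.2 CPM in the tumour gates. Among markers of other cells in the myeloid gate, the 4 fibroblast markers summed to 118 CPM in Sun1_WT and 239 CPM in Sun1_KO, with Col1a1 at 19.1 and 207 CPM and Dcn at 92.6 and 24.96 CPM. The 4 endothelial markers summed to 124 and 161 CPM, the 7 NK markers to 95.2 and 70.2 CPM, the 8 T cell markers to 47.6 and 51.1 CPM, the 5 neutrophil markers to 99.3 and 102 CPM (nearly all Csf3r), the 5 dendritic markers to 34.7 and 35.4 CPM and the 6 tumour markers to 81.2 and 74.9 CPM. Their part in the results was not tested. Tumour nuclei of Sun1_WT had 105 CPM of Sun1 RNA and those of Sun1_KO 64.8 CPM, while myeloid nuclei had 36.2 and 38.3 CPM. Sun1 RNA was thus lower but present in tumour nuclei labelled Sun1_KO, and these counts alone do not show that SUN1 is lost. Among barcodes, 12 were found in both libraries, 1 of them myeloid in both.

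Open chromatin marks the promoters and enhancers that a cell keeps available to transcription factors. In macrophages and monocytes the factor PU.1, encoded by Spi1, opens most of the enhancers of the lineage together with C/EBP, AP-1, IRF and RUNX factors. Part of this landscape is shared with lymphocytes through genes of leukocyte signalling and movement, and part belongs to phagocytosis, pattern recognition and growth factor receptors of the myeloid line.

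The letters of such promoters are shown first, because the motifs they carry can be compared with those of other open promoters. Of 204 listed genes, 52 had a promoter window that overlapped a member. Of these 52, 19 held at least 1 of the motifs searched in the 150 bases before the start, and 3 held the PU.1 letters. The promoters printed were picked from the 19 because they hold a motif. Each line gives the 150 bases before an annotated gene start that a member covers, 5′ to 3′ on the gene's strand, from RefSeq (GRCm38.p6, the assembly that mm10 names), with the motif in capitals on whichever strand it lies. The first group carries the PU.1 letters GAGGAAGT. Pirb, an inhibitory immunoglobulin-like receptor, has them 120 bases before its start (chr7:3720383-3720532, minus strand). Vav1, an exchange factor of leukocyte signalling, has them 11 bases before (chr17:57278950-57279099, plus strand), and Pf4, a platelet and macrophage chemokine, 10 bases before (chr5:90772285-90772434, plus strand).
Pirb: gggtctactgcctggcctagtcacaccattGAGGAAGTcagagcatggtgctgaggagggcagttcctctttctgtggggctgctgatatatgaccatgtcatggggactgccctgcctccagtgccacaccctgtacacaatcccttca
Vav1: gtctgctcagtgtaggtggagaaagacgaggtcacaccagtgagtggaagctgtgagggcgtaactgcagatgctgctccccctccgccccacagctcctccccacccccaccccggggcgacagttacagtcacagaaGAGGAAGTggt
Pf4: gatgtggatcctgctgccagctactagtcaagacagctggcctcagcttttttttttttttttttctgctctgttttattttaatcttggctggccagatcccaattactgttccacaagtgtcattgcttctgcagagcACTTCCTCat

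The second group carries the letters of partner factors. Fcgr2b, the inhibitory Fc receptor, holds the ETS-IRF letters GGAA and GAAA parted by 2 bases of any kind (chr1:170976072-170976221, minus strand), and Ctss, a lysosomal protease, the IRF letters GAAA and GAAA parted likewise (chr3:95526636-95526785, plus strand). Clec4e, a receptor for mycobacterial glycolipid, holds the C/EBP letters TTGCNNAA and the RUNX letters TGTGGT (chr6:123289872-123290021, minus strand). Trem2, a lipid receptor of macrophages, holds the AP-1 letters TGANTCA (chr17:48346251-48346400, plus strand), Cxcl2, a neutrophil attractant, the NF-kB letters GGGA and TTTCC with any base between (chr5:90903749-90903898, plus strand), and Lyz2, lysozyme, the RUNX letters (chr10:117282273-117282422, minus strand).
Fcgr2b: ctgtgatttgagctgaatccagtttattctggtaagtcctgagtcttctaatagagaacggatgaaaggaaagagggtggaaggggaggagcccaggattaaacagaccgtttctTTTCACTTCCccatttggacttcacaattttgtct
Ctss: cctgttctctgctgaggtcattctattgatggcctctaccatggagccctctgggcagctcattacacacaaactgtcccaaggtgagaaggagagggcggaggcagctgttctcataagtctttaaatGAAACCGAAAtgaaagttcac
Clec4e: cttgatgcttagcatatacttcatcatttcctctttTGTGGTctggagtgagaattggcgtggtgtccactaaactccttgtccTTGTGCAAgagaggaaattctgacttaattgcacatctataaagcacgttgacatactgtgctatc
Trem2: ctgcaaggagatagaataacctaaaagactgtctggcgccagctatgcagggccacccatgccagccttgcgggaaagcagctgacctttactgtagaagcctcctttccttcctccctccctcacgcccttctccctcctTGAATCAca
Cxcl2: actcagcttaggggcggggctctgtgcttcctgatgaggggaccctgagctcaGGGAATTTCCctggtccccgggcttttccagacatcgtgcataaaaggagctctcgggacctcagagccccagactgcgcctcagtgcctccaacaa
Lyz2: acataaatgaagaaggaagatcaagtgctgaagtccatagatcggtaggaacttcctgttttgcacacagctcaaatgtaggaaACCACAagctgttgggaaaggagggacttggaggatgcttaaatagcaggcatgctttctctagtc

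The members at these starts were open in myeloid nuclei of both libraries. The Pirb member held 67 counts in Sun1_WT and 79 in Sun1_KO myeloid nuclei, with 58 in the far more numerous Sun1_KO tumour nuclei. The Vav1 member held 225 and 228 myeloid counts and 98 tumour counts. The Pf4 member held 147 and 94 myeloid counts, a log2 ratio of -0.64, and 97 and 64 tumour counts. The Lyz2 member held 148 and 156 myeloid counts but 299 Sun1_KO tumour counts, short of 8-fold in CPM in that library. The members at Pirb and Pf4 were nearly closed in lymphoid nuclei (log2 lymphoid over myeloid of -6.25 and -6.50 in Sun1_KO), while the member at Vav1 was as open there as in myeloid nuclei (0.36), so the same PU.1 letters stood at promoters of both kinds.

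Of the 10 motifs searched, the PU.1 letters had the highest ratio of member windows to other open windows. Of the 31365 RefSeq windows around gene starts (250 bases before to 50 after), 1210 overlapped a member, and 8.02% of these held the PU.1 letters on either strand, against 2.997% of the 10445 windows over another peak with at least 50 myeloid counts and 3.25% of all windows. Base composition differed too, with a median of 56.7% GC in member windows, 62.3% in the other open windows and 53.0% in all. Within windows of 40 to 50% GC the PU.1 shares were 12.8%, 5.07% and 3.75%, and within 50 to 60% GC they were 10.9%, 3.20% and 3.56%. Member windows thus had the highest share in both bands, while the order of other open windows and all windows turned. The bands held 274 and 414 of the member windows and 829 and 3254 of the other open windows. Windows outside these bands were not compared by GC. RUNX letters stood in 17.0%, 11.7% and 16.7% of windows, C/EBP letters in 10.8%, 7.68% and 10.9%, and AP-1 letters in 6.36%, 5.13% and 7.85%. Within the GC bands RUNX letters stood in 23.4%, 17.6% and 21.5% of windows at 40 to 50% GC and in 19.8%, 15.1% and 18.7% at 50 to 60%. AP-1 letters changed order between the bands, with 15.3%, 11.8% and 10.8% in the lower and 6.28%, 7.25% and 7.57% in the higher. C/EBP letters stood in 17.9%, 16.2% and 15.1%, and in 11.6%, 11.0% and 10.7%.

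Several motifs were more frequent where the member was closed in lymphoid nuclei. In the 216 windows whose member was at least 8-fold lower in Sun1_KO lymphoid than myeloid nuclei, the PU.1 share was 11.6%, that of IRF letters 7.41%, of ETS-IRF letters 6.94% and of AP-1 letters 10.6%. In the 778 windows whose member was within 2-fold of myeloid nuclei or higher, the shares were 6.56%, 2.96%, 2.19% and 4.63%. CTCF letters (CCA, AG and GGC, each parted by 2 bases of any kind), which mark chromatin boundaries, were in none of the 216, which allows a share of up to 1.39%, and in 3.08% of the 778. The median GC content was 49.7% in the 216 windows and 60% in the 778, and its part in these shares was not tested. TEAD letters (GGAATG), known from adherent and epithelial cells, were in 9.92% of member windows, 11.1% of other open windows and 14.6% of all. NF-kB letters were in 0.579%, 0.460% and 0.418%, and MAF letters (TGC followed by the AP-1 letters) in 0.331%, 0.316% and 0.430%. The IRF and ETS-IRF letters can overlap. A match is a description of these letters in this window, and no match says nothing of the factor.

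**Figure D1:**
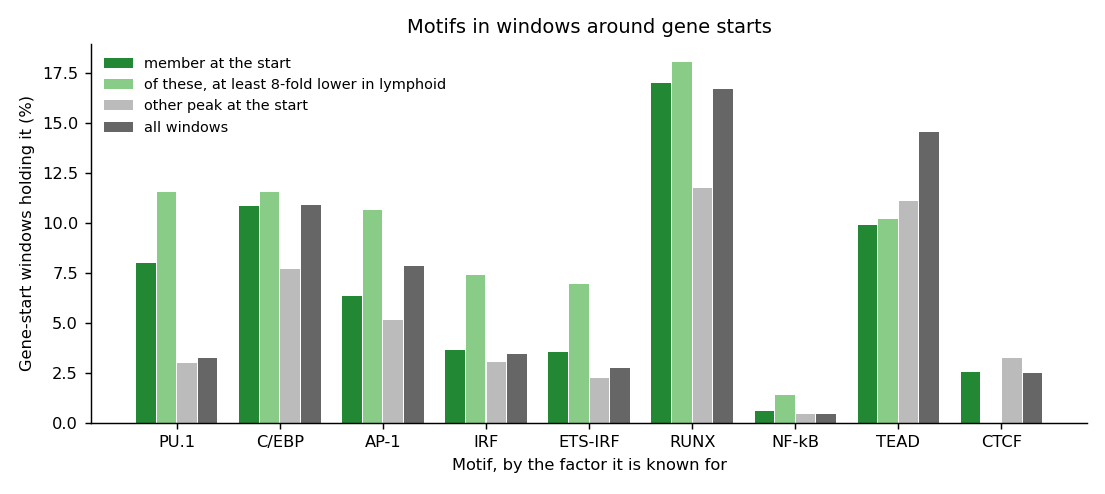
Share of RefSeq gene-start windows (vertical axis, %) that hold each of 9 motifs (horizontal axis), for windows over a member, for those of them whose member was at least 8-fold lower in lymphoid nuclei, for windows over another open peak and for all windows. The PU.1 bars stand at 8.02%, 11.6%, 2.997% and 3.25%, and the CTCF bar is at 0 for the lymphoid-low windows.

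The values that chose the members are given as a description only. In Sun1_WT myeloid nuclei a member held 50 to 887 counts, with a median of 140, and the median member had a count in 17.7% of myeloid and 1.998% of tumour nuclei. Its Sun1_WT myeloid over tumour ratio ran from 8.02 to 1002, with a median of 31.0, and 3088 members were past 50-fold. At the edge of the rule, 49 members had exactly 50 counts and 44 peaks past 8-fold had 49. Between 8- and 10-fold lay 708 members, and between 6- and 8-fold 863 peaks that were not members.

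The Sun1_KO library, which the rule did not use, showed the same contrast. A Sun1_KO peak overlapped 11151 of the members, and 10480 of these (93.98%) were again at least 8-fold higher in myeloid than in tumour nuclei, against 12.5% of all 129400 autosomal Sun1_KO peaks tested. At least 2-fold were 11145 (99.9%), against 21.5% of all, and 6 were below. The median was 28.4-fold (log2 4.83), with 5th and 95th percentiles of 7.57 and 88.3-fold, while the other Sun1_WT peaks with 50 or more myeloid counts had a median log2 of 0.20. The remaining 573 members (4.89%) overlapped no Sun1_KO peak. They were shallow, with a median of 84 Sun1_WT myeloid counts against 144 for those followed, and their Sun1_KO level is not known.

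**Figure D2:**
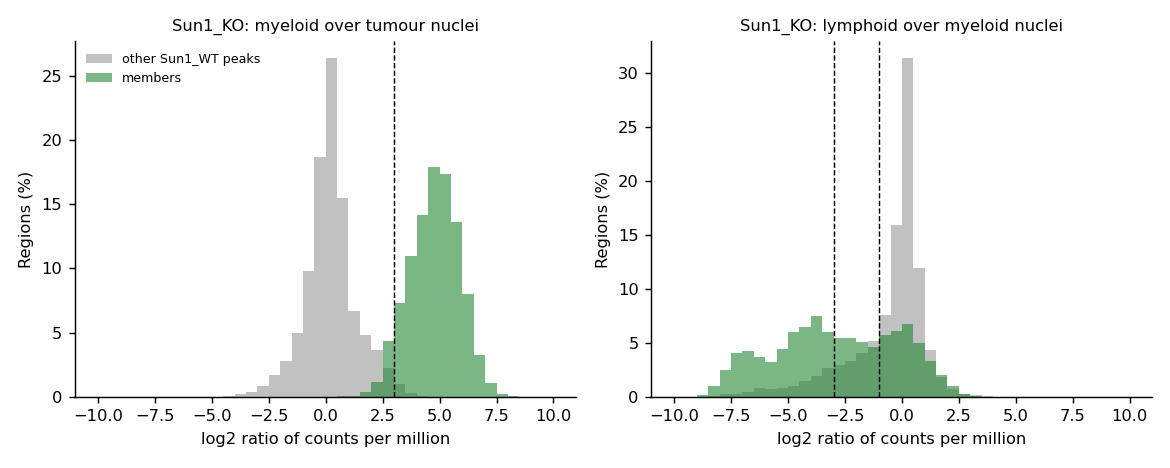
Share of regions (vertical axes, %) by log2 ratio of CPM (0.5 counts added) in the Sun1_KO library, for the 11151 followed members and for other Sun1_WT peaks with at least 50 myeloid counts. Left, myeloid over tumour nuclei with a dashed line at 8-fold: members centre at 4.83 and the others at 0.20. Right, lymphoid over myeloid nuclei with dashed lines at 2- and 8-fold lower: members spread widely with a median of -2.93, and the values below about -6 are mostly regions with no lymphoid count.

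Member counts also marked single nuclei. The median Sun1_KO myeloid nucleus had 20.5% of its peak counts in members (5th to 95th percentile 14.8 to 23.0%), the median lymphoid nucleus 8.88% (7.40 to 10.0%) and the median tumour nucleus 0.701% (0.471 to 2.56%). In Sun1_WT, whose nuclei chose the members, the medians were 21.3%, 9.62% and 0.669%. Nuclei with high Hmga2 and more than 1 Ptprc UMI, which the gates left out, stood between, at 4.55% in the 125 of Sun1_WT and 3.10% in the 178 of Sun1_KO. Nuclei that met no gate had a median of 0.723% in Sun1_WT and 5.40% in Sun1_KO, and those of Sun1_KO had a median of 1026 UMIs against 7885.

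**Figure D3:**
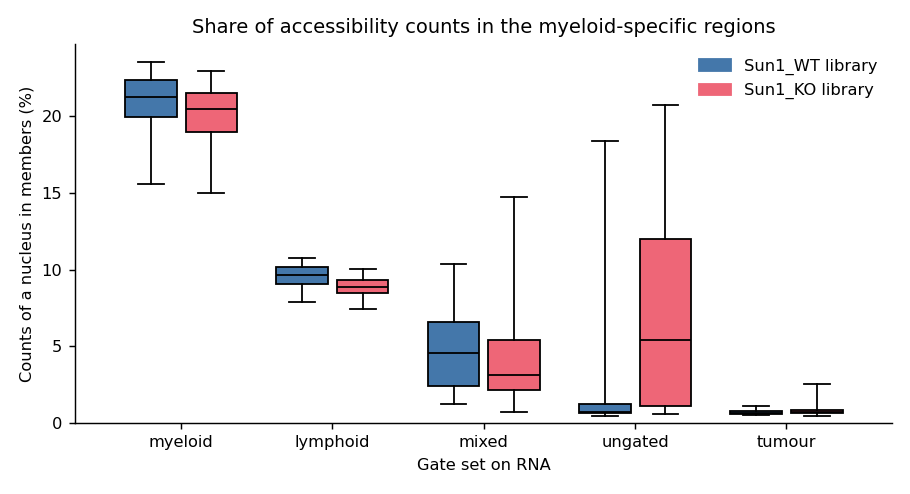
Share of a nucleus's peak counts that fall in members (vertical axis, %) by RNA gate and library; boxes give quartiles and median, whiskers the 5th and 95th percentiles. Myeloid nuclei (medians 21.3 and 20.5%) lie above lymphoid (9.62 and 8.88%), mixed (4.55 and 3.10%) and tumour nuclei (0.669 and 0.701%).

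Of the 10 members with the largest lower bound of the contrast in Sun1_KO, 3 lay at gene starts, 1 inside a gene and 6 between genes. At the start of Csf2ra, a chain of the receptor for GM-CSF, the member at chr19:61228052-61228926 held 491 myeloid and 61 tumour counts in Sun1_WT. In Sun1_KO it held 510 and 27 counts, a 249-fold ratio (95% interval 138 to 391), and 18 lymphoid counts. The member at the start of Rab39, a trafficking GTPase, at chr9:53705888-53706760 held 691 myeloid, 42 tumour and 94 lymphoid counts in Sun1_KO, a 218-fold ratio (138 to 328). Both starts were therefore open in myeloid nuclei at over 100-fold the tumour level even at the lower bound. Of these top 10, ranked by that bound, a pair lay near Ctsc (cathepsin C), 25751 and 46591 bp from its start, with 222 and 187 myeloid against 6 and 8 tumour counts and no lymphoid count. Others lay near Pde4b, a cyclic AMP phosphodiesterase, inside Dpp6 and at the start of Fry.

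Members lay at gene starts as often as all peaks and less often than other peaks open in myeloid nuclei. Within 1 kb of a gene start lay 1770 members (15.1%), elsewhere inside a gene 5824 (49.7%) and between genes 4130 (35.2%). Of all autosomal Sun1_WT peaks 15.1% lay within 1 kb of a start, and of the other peaks with 50 or more myeloid counts 44.0%. The median distances to a start were 11431 bp for members and 2107 bp for these other peaks. Members gathered in 7554 clusters at a gap of 12.5 kb, of which 5228 had 1 member and 216 had 5 or more, holding 1354 members (11.5%). The largest cluster held 18 members over Lcp1, the leukocyte actin bundler L-plastin, at chr14:75121420-75196083, with 3462 myeloid counts in Sun1_WT and 3313 in Sun1_KO. The next held 16 at Lcp2, a T cell and myeloid adaptor, and 14 around Irf8. Members with another member within the gap were 55.4%, fewer than the 65.7% of the other open peaks that had another of their own kind, a set of 25835 that is more numerous and closer to gene starts.

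The more members lay near a gene, the more often its RNA was higher in myeloid nuclei. Members lay within 10 kb of 5976 genes, of which 3755 had at least 50 UMIs over both gates in Sun1_KO, the gating genes left out. Of these, 1251 (33.3%) had RNA at least 2-fold higher in myeloid than in tumour nuclei, against 15.4% of all 11879 genes tested, and 559 at least 2-fold lower, against 27.1% of all. The share higher was 7.08% with no member nearby, 19.1% with 1, 39.7% with 2, 53.3% with 3 to 4, 69.1% with 5 to 9, and 81.6% of the 49 genes with 10 or more. In Sun1_WT the share was 34.2% against 15.7% of all. RNA entered the rule only through the gates.

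**Figure D4:**
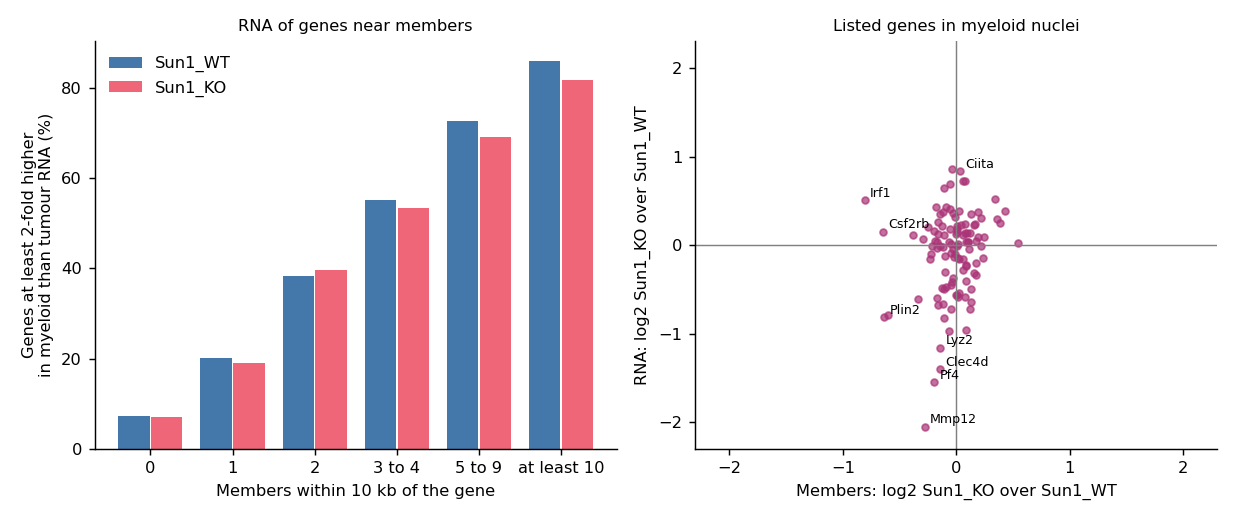
Left, share of genes (vertical axis, %) with RNA at least 2-fold higher in myeloid than tumour nuclei by number of members within 10 kb (horizontal axis), rising from 7.08 to 81.6% in Sun1_KO and likewise in Sun1_WT. Right, each point is a listed gene with at least 100 UMIs: log2 Sun1_KO over Sun1_WT in myeloid nuclei of its summed members (horizontal) against its RNA (vertical), with Mmp12, Pf4, Clec4d and Lyz2 lowest among those named in RNA (-2.05 to -1.16) and less low in members (-0.28 to -0.14).

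Some genes with members had RNA less than 2-fold higher in myeloid than tumour nuclei, or almost no RNA. Lpp, a focal adhesion protein, had the most members, 22, and its RNA was 722 CPM in myeloid and 537 CPM in tumour nuclei of Sun1_KO. Rad51b, a recombination gene, had 16 members and RNA lower in myeloid (214 CPM) than tumour nuclei (315 CPM). Tlr9, the receptor for unmethylated DNA, had members at 92.8 CPM of accessibility and RNA of 4.64 CPM. Ms4a1, the B cell antigen CD20, had 4 members and no RNA UMI in Sun1_KO myeloid nuclei.

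Listed transcription factors of the lineage carried 51 members at 12 of 20 genes, where 23.7% of all 25185 genes with an autosomal position had a member within 10 kb. The start of Irf8, a factor of monocytes and dendritic cells, at chr8:120735809-120736698 held 602 myeloid, 121 tumour and 299 lymphoid counts in Sun1_KO, so in CPM it was as open in lymphoid as in myeloid nuclei (log2 0.06). Ikzf1, a lymphoid and myeloid factor, showed the same at its start, with 450 myeloid, 62 tumour and 221 lymphoid counts. Spi1 had 5 members with 122 CPM in Sun1_KO myeloid, 6.28 in tumour and 40.8 in lymphoid nuclei. Cebpa, Cebpb, Cebpd, Maf, Klf4, Mitf, Spic and Stat3 had no member within 10 kb.

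Growth factor and surface receptors carried 46 members at 15 of 20 genes. Sirpa, the receptor for CD47, had 7, of which the strongest, inside the gene at chr2:129595469-129596408, held 491 counts in Sun1_WT and 508 in Sun1_KO myeloid nuclei, with 97 in tumour and none in lymphoid nuclei of Sun1_KO. Adgre1, which encodes F4/80, had 1 member at 29.4 CPM in Sun1_KO myeloid and 0.43 CPM in tumour nuclei, with no lymphoid count. Csf1r, the receptor for the main macrophage growth factor and a gate gene, had 4 members at 108, 9.11 and 3.9 CPM in myeloid, tumour and lymphoid nuclei. Cd14, Cd68, Cd163, Marco and Flt3 had no member.

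Fc and complement genes carried 28 members at 10 of 11 autosomal genes, 27 of 28 refound. The start of C1qb, a chain of complement C1q, at chr4:136885823-136886718 held 294 myeloid counts in Sun1_WT and 397 in Sun1_KO, with 82 and 63 tumour counts and 12 and 0 lymphoid counts. The 3 members of the C1qa, C1qb and C1qc locus together had 90.5 CPM in Sun1_WT and 102 CPM in Sun1_KO myeloid nuclei. Fcgr1, the high-affinity IgG receptor, had members at 80.6, 6.01 and 6.9 CPM in Sun1_KO myeloid, tumour and lymphoid nuclei. Fcer1g, the shared Fc receptor chain, differed from these by its lymphoid level, 58.1 CPM against 83.7 CPM in myeloid nuclei.

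Pattern recognition and inflammasome genes carried 39 members at 12 of 15 autosomal genes. Nlrp3, the inflammasome sensor, had 7 members at 154 CPM in Sun1_KO myeloid, 5.61 in tumour and 5.2 CPM in lymphoid nuclei. Il1b, the cytokine it matures, had 3 at 98.3, 1.22 and 3.0 CPM. Phagocytosis and lipid genes carried 41 members at 14 of 20 genes, with 7 at Cd36, a scavenger receptor for lipid, at 158, 1.23 and 0.9 CPM, and 7 at the cholesterol exporter Abca1 at 108, 3.77 and 0.4 CPM. Chemokine genes carried 30 members at 15 of 16 genes, MHC class II genes 26 at 8 of 9, oxidative burst genes 13 at 6 of 9, interferon gamma response genes 9 at 3 of 10, and matrix genes 4 at 3 of 10. The interferon gamma and matrix shares lie near the 23.7% of all genes. Immune adaptors and signalling genes carried most, 97 members at all 16 autosomal genes. Markers of other cells carried 3 members at 3 of 14 T and NK genes, 5 at 2 of 5 B cell genes, 1 at 1 of 7 neutrophil and mast cell genes (S100a8), 9 at 3 of 7 stromal genes, and 2 at 2 of 6 tumour genes. Against 23.7% of all genes, the T and NK share is near the background and the neutrophil and mast cell share below it, while the B cell, stromal and tumour shares are above it on 5 to 7 genes each. All of the 3 T and NK members, at Cd3d, Klrk1 and Tcf7, were more open in lymphoid than myeloid nuclei of Sun1_KO.

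Lymphoid nuclei divided the members into a shared and a myeloid-restricted set. They were called with at least 3 UMIs of T or NK genes and fewer than 5 of the myeloid genes, 157 in Sun1_KO. The median member was lower there by 2.93 on the log2 scale (2.90 with regions of no lymphoid count set at 3 counts), against 0.009 for the other open peaks. Of the followed members 3374 (30.3%) were within 2-fold of myeloid nuclei or higher, against 64.7% of 51251 peaks tested, and 5483 (49.2%) were at least 8-fold lower, against 20.5%. The latter count is 5442 with zeros at the floor, and 1726 members had no lymphoid count. Between 2- and 8-fold lower lay 2294 (20.6%), against 14.8%. At least 2-fold higher in lymphoid nuclei were 746 (6.69%), against 19.1%. The peaks tested needed 50 counts over both gates together, and members 50 in Sun1_WT myeloid nuclei alone. Peaks with few myeloid counts could thus enter the former only, and the part of this in the shares was not tested. Among Sun1_WT peaks with 50 or more myeloid counts, the 95th percentile was log2 1.22 for members and 1.20 for the others. T nuclei (84, median -3.15) and NK nuclei (73, median -2.73) gave 3114 and 3479 members within 2-fold or higher, 2704 of them in both.

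The shared set lay at gene starts more often than the restricted set. Of members within 2-fold or higher, 30.6% lay within 1 kb of a gene start, of those 2- to 8-fold lower 11.5%, and of those at least 8-fold lower 7.33%. Of 117 genes with a restricted member at their start, 81.2% had RNA at least 2-fold lower in lymphoid than myeloid nuclei. The share was 77.2% of the 92 genes with a member 2- to 8-fold lower, 28.3% of the 321 genes with a shared member and 18.5% of all 7009 genes. RNA thus told the shared set from both lower classes, and hardly parted these from each other.

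Several gene groups fell on either side in Sun1_KO. Of 15 receptor genes, 10 had members at least 8-fold lower in lymphoid nuclei and 1, Cx3cr1, within 2-fold. Of 12 pattern recognition genes the counts were 10 and 2, of 10 Fc and complement genes 7 and 3, of 14 phagocytosis genes 9 and 3, and of 15 chemokine genes 8 and 5. Neighbouring genes can share members, as C1qa, C1qb and C1qc do, and Ccl3 and Ccl4, so these genes are not separate observations. Counted by single members and not by gene, 49.2% of all followed members were at least 8-fold lower and 30.3% within 2-fold or higher. The chemokine counts lie near these shares. Of the 16 adaptor and signalling genes the order was turned, with 3, among them Lyn and Syk, at least 8-fold lower and 11 within 2-fold or higher. Dock2, an activator of Rac in leukocytes, had 10 members at 143 CPM in myeloid, 156 in lymphoid and 3.75 CPM in tumour nuclei. Coro1a, a leukocyte actin regulator, had 3 at 63.3, 108 and 1.71 CPM. Ccl3 and Ccl4, chemokines made by macrophages and NK cells, were also higher in lymphoid nuclei of Sun1_KO, at 145 against 94.8 CPM and 201 against 157 CPM. In Sun1_WT the member at the Ccl3 start was lower in lymphoid nuclei, at 28.7 against 54.1 CPM. The Sun1_WT members at chr11:83639969-83640768 and chr11:83662006-83662911 were higher there, at 49.2 against 33.1 CPM and 34.5 against 32.7 CPM. Transcription factor genes split 2 and 5, with Tfec among the low and Runx1, Irf8, Fli1, Ikzf1 and Irf5 shared. MHC class II genes lay between, 5 of 8 being 2- to 8-fold lower.

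**Figure D5:**
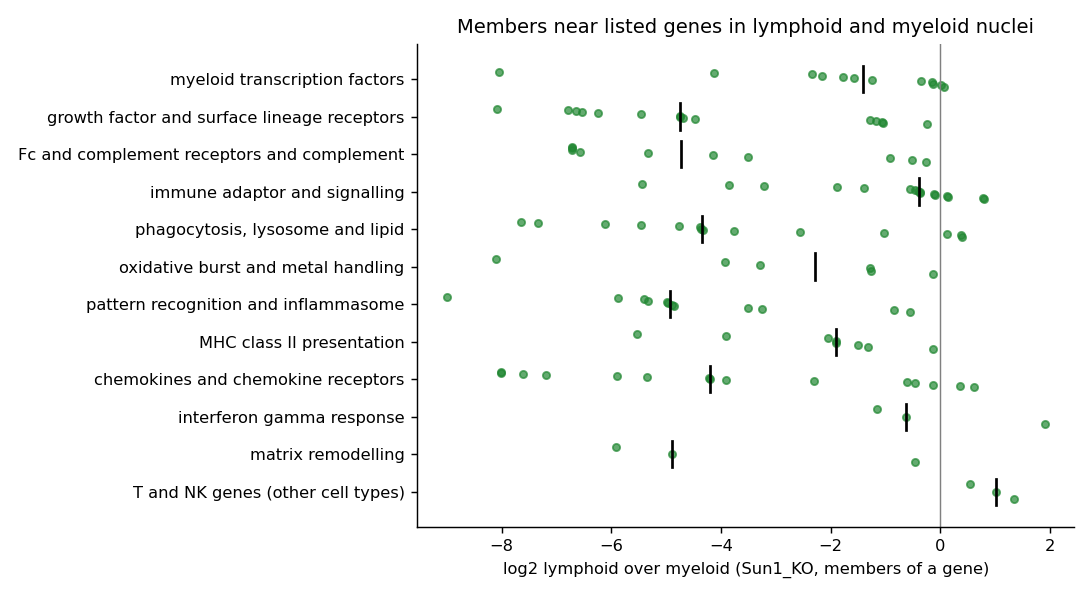
Log2 ratio of lymphoid over myeloid CPM in Sun1_KO (horizontal axis) of the summed members of each listed gene, 1 point a gene, by gene list (vertical axis), with the list's median as a bar. Neighbouring genes can share members. Receptors (median -4.74), Fc and complement (-4.73) and pattern recognition (-4.93) lie far left, adaptors (-0.40) near 0 and T and NK genes (1.02) right of it; points below about -7 are mostly genes with no lymphoid count.

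Between the genotypes members differed little in myeloid nuclei. Overlapping peaks of both libraries were merged, giving 11146 regions with a member, and the median Sun1_KO over Sun1_WT ratio was 0.006 on the log2 scale (5th to 95th percentile -0.52 to 0.50). The Sun1_WT counts had chosen the members, so the ratio is a description. At least 2-fold higher were 21 regions, against 0.979% of all 47786 regions tested, and at least 2-fold lower 43, against 2.06%. Within 2-fold were 99.4% of member regions and 97.0% of all. Members had to reach the count minimum in Sun1_WT alone, and all regions only over both libraries together, so the latter include shallower regions. With the minimum raised to 100 counts, 123 of all 36126 regions were at least 2-fold higher and 239 lower. Of 8209 member regions 3 were then higher and 16 lower. The part of depth in these shares was not tested. Choosing members in Sun1_KO by the same rule in place of Sun1_WT gave 99 higher and 9 lower. The direction of the few member regions past 2-fold thus turned with the library that chose the members.

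In 4 of the 5 highest ratios the peak was called longer in Sun1_KO. A region at the start of Galnt6, a glycosyltransferase, held 119 counts in Sun1_WT and 298 in Sun1_KO (log2 1.32, 0.95 to 1.77), from a called length of 602 bp in Sun1_WT and 888 bp in Sun1_KO, and a log2 ratio of 0.76 per kb of called peak. A region beside Cd6, a lymphocyte adhesion receptor, held 179 and 415 counts (1.21) from 448 and 781 bp, and a log2 ratio of 0.41 per kb. A region in Rin3, a Rab5 exchange factor, held 60 and 148 counts from 654 and 879 bp. A region inside Cd86, the costimulatory ligand, kept its difference per kb (75 and 180 counts, log2 1.27 per kb), and one between genes on chromosome 14 lost it (143 and 328 counts from 409 and 1300 bp, log2 -0.48 per kb). Divided by called length, 9 member regions in place of 21 were at least 2-fold higher and 46 in place of 43 lower, an alternative added after the data were seen.

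The lowest ratios had like lengths in both libraries. A region 25731 bp from the start of Il7r held 134 counts in Sun1_WT and 39 in Sun1_KO (log2 -1.77, -2.49 to -1.03), with 879 and 851 bp called. A region in Lrmda, chr14:22587154-22588105, held 191 and 82 counts (-1.22), and one in Mfsd4b5 held 103 and 31 (-1.72). In Sun1_KO the Il7r region stood 10.1-fold above tumour nuclei, with an interval (5.52 to 18.2) that includes 8-fold. The Lrmda region stood at 14.1-fold (8.46 to 20.9), and the Mfsd4b5 region fell below 8-fold, at 2.41-fold (1.42 to 4.03).

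Ratios of Sun1_KO over Sun1_WT spread more widely in RNA of the same myeloid nuclei than in the members. Counting error was not taken out of either, and its part in the spreads and correlations below was not tested. Over 2511 genes with a member and at least 100 UMIs, the SD of the Sun1_KO over Sun1_WT log2 ratio was 0.37 in RNA and 0.25 in members, and across these genes, which share the same nuclei and depth, Pearson's r was 0.076 and Spearman's rho 0.097. Of 19 genes with RNA at least 2-fold lower, members had a median of -0.10, and of 21 at least 2-fold higher 0.05. Lyz2 RNA, a gate gene, was 4137 CPM in Sun1_WT and 1856 CPM in Sun1_KO, a log2 ratio of -1.16, while its 3 members stood at 57.5 and 52.1 CPM (-0.14, -0.41 to 0.07). Mmp12, a macrophage elastase, had RNA of 503 and 121 CPM and 1 member at 19.5 and 16.05 CPM. Trem2 had RNA of 126 and 64.4 CPM and members at 39.8 and 38.1 CPM, and Clec4d, a C-type lectin, RNA of 139 and 52.2 CPM and members at 101 and 91.2 CPM. In these 4 genes both values were lower in Sun1_KO, the RNA by the larger factor.

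Of the 19 genes with RNA at least 2-fold lower, 13 had members below 0, and of the 21 higher, 13 had members above 0. Of the genes with smaller RNA differences, 49.1% had members below 0. With so few genes, no link between RNA and members is read from these counts. Abca1 had RNA of 395 and 258 CPM and members at 136 and 108 CPM (log2 -0.33, -0.52 to -0.19). H2-Aa, an MHC class II chain, had RNA of 1146 and 1648 CPM and members at 39.5 and 50.1 CPM (0.34, 0.07 to 0.61). Ciita, the activator of class II genes, had RNA of 122 and 217 CPM and members at 44.0 and 45.0 CPM. Csf2rb, the shared chain of the GM-CSF receptor, went the other way, with RNA of 146 and 163 CPM and 1 member at 26.4 and 16.9 CPM (-0.65, -0.998 to -0.21). With 1 library each, the genotype cannot be told apart from the library in any of these values.

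C1q RNA divided myeloid nuclei into states between which some members differed, at shares near or a little above those of all regions. Nuclei with 5 or more UMIs of C1qa, C1qb and C1qc per 10000 numbered 229 in Sun1_WT and 245 in Sun1_KO, the others 127 and 102. The C1q-high nuclei held 6958753 peak counts in Sun1_WT and 7299266 in Sun1_KO, the C1q-low nuclei 2687347 and 2358181. The part of this depth in the shares was not tested. Of 10897 member regions with enough counts, 952 (8.74%) were at least 2-fold higher in C1q-high nuclei of Sun1_WT, against 6.45% of all regions, and 1101 (10.1%) in Sun1_KO, against 7.25%. Both libraries shared 442, which is 46.4% of the first and 40.1% of the second, close to the 40.9% and 36.4% over all regions. At least 2-fold lower were 223 (2.05%, against 1.67%) and 285 (2.62%, against 2.58%), 64 of them shared, so the lower shares lie near the background.

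The C1qb start was far more open in C1q-high than C1q-low nuclei, with 287 counts against 7 in Sun1_WT (41.2 and 2.60 CPM) and 393 against 4 in Sun1_KO (53.8 and 1.70 CPM), on a split made with its own RNA. A region within 10 kb of Zc3h18 at chr8:122407484-122408300 held 97 counts against 0 in Sun1_WT and 67 against 0 in Sun1_KO. One near Zcchc14 held 160 against 2 and 168 against 2, and one near Eps15, an endocytic adaptor, 99 against 2 and 72 against 1. In the other direction, a region near F13a1, the coagulation factor of monocytes, had 7.19 CPM in C1q-high and 23.1 CPM in C1q-low nuclei of Sun1_WT, and 4.38 and 17.0 CPM in Sun1_KO. A region 28428 bp from Lrrk2, a kinase of monocytes, had 3.74 and 18.2 CPM, and 6.30 and 27.1 CPM. These regions stood apart in the same direction in both libraries, which is the rule that named them.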

How the data were processed

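Each of 4 libraries (RNA and accessibility of Sun1_WT and Sun1_KO tumours) had a deposited table of counts per nucleus, from the authors; mm10, Signac, Seurat and Cell Ranger ARC are among the names in the submitters' processing notes. The peak sets of the libraries differ, per the peak names in the deposited files. RNA libraries held 53707675 and 35471291 UMIs, and accessibility libraries 227006096 and 183750142 counts in peaks. About 75.5% and 75.0% of nonzero accessibility counts were even, so a count is not one independent fragment, and exact binomial 95% intervals use counts halved and rounded up. Gates and the rule were applied with Python 3.11.15, numpy 2.4.6 and scipy 1.17.1; ratios are of CPM with 0.5 counts added, RNA totals leave out mitochondrial genes, and the floor for 0 counts is 3. Doublets were not called, and the table of the authors' own comparison was not used. Members were followed through Sun1_KO peaks sharing at least 1 bp. RefSeq gave positions on autosomes for 25185 of 32285 genes, with strand for 19361; for others both gene ends served as starts, and promoter windows are not complete. Named regions were the 10 with the largest lower bound in Sun1_KO, up to 2 members at up to 3 genes of each list, the 5 highest and lowest genotype ratios, the 10 genes with most members and those nearest the threshold; other listed genes were picked as examples after their values were seen. Members and lists were chosen with earlier results of these data known. Ratios and intervals were tested on simulated data. Some listed genes are not reported here by name.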

Additional observations from a re-analysis of the deposited data

How the results depend on the processing

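No paired analysis was possible because each genotype has 1 library, and no library could be left out. Of 89 alternative values, 44 stayed within the main value's interval (or 1.5 times a count), 45 moved and 0 were labelled reversed. That label does not cover the genotype median, which lay near 0 (0.006) and changed sign in several settings. Nor does it cover the mirrored rule, which turned the regions past 2-fold from mostly lower to mostly higher. The main value's interval takes members or genes as independent draws, which they need not be. Staying within it or moving is therefore a yardstick only. Binarised nuclei gave 7304 members, a Sun1_KO myeloid over tumour median of 4.35, a Sun1_KO over Sun1_WT median of -0.025 and 2 regions higher and 6 lower by 2-fold. Estimated fragments gave 95.3% refound, medians of -0.0061 between genotypes and -3.02 for lymphoid over myeloid, and 5 higher and 17 lower. The stricter myeloid gate gave 4.89, -0.043, -3.02 and 78 lower, and the stricter tumour gate 4.98. At 100 counts the values were 95.5% refound, 5.05, -0.011, -3.26, 3 higher and 16 lower. At 4-fold they were 95.05%, 4.56, -2.70 and 83 lower. At 16-fold they were 90.5%, 5.12, -3.18, 13 higher and 21 lower. The mirrored rule gave a genotype median of 0.041 with 99 higher and 9 lower, and median-ratio scaling 0.061. Chosen after the data were seen, C1q-high nuclei alone gave 43 higher and 99 lower, C1q-low nuclei alone -0.027 with 467 higher and 617 lower at fewer counts per region, and counts per kb of called peak -0.0037 with 9 higher. Linked genes higher in myeloid RNA were 35.9% by nearest gene within 100 kb, 39.8% by gene body and 36.5% at 20 UMIs, and 30.7% of members lay within 5 kb of a gene start. The cause of these shifts was not tested. Depth limits the weakest members, which hold 50 counts.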
